A study of Rattus norvegicus with 20 samples.

Results

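The genes of sugar breakdown were followed in whole blood of 20 Wistar rats, with 1 array per rat. They were chosen by name: 38 genes that encode the enzymes of glycolysis, the glucose and lactate carriers, the regulators of pyruvate dehydrogenase and the enzymes of the pentose phosphate pathway. A gene was read from the brightest probe that carried its name on a 1-colour Agilent rat array, and 37 of the 38 could be read this way and entered the tests, among 15239 genes tested in all. Pgd, the third enzyme of the oxidative pentose phosphate branch, was not analysed here. The gene listed as Pkm2 is Pkm by its current symbol.

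The rats formed 5 groups of 4. One group was sham-operated, and the other four underwent surgery that causes reflux esophagitis, an injury of the esophagus by gastric contents. One of the injured groups was untreated. A pair of groups had received the herbal preparation STW5 at 0.5 or at 2 ml/kg, and the last had received omeprazole, an inhibitor of the gastric proton pump, at 30 mg/kg. Both treatments began 7 days before surgery and went on for 10 days after it. A time of 10 days after surgery is recorded for all 5 groups, sham and untreated included. All values come from blood, not from the esophagus, and the 4 arrays of a group came from separate animals. The STW5 dose labels are uncertain. The titles of the arrays and the design text number the dose groups in opposite order, and in the authors' deposited table the STW5 columns follow the array of the other dose. The titles were followed here.

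Glycolysis splits glucose into pyruvate in the cytosol. Hexokinases trap the sugar as glucose 6-phosphate, phosphofructokinase commits it to breakdown, and pyruvate then either enters mitochondria through pyruvate dehydrogenase or leaves the cell as lactate. Glucose 6-phosphate can instead enter the pentose phosphate pathway, which supplies NADPH and ribose 5-phosphate. In blood, mature red cells lack mitochondria and live on glycolysis, and neutrophils depend on glycolysis for energy and on NADPH for their oxidative burst. Many steps have several isoenzymes, and blood cell types differ in which they use: liver-type pyruvate kinase (Pklr) is the red cell form, and hexokinase 3 (Hk3) is a leukocyte form.

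A level below is the log2 intensity of a probe minus the log2 75th percentile of its array, so that 0 marks the 75th percentile, and a difference is a difference of such levels between groups. The 75th percentile itself ranged from 71.3 to 308 intensity units, and 43.1% to 57.4% of the probes on an array were well above background. Of the 37 genes, 31 were well above background on all 20 arrays. The 6 dimmer ones were Hk3 (18 arrays), Hk2 (9), Pfkfb1 (9), Pgam2 (8), Pfkfb2 (7) and Pdk1 (7). The median standard error of a difference over all genes tested was 0.35.

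Some arrays of the untreated group stood apart from one another. Untreated array 1 was nearest to a sham array (Pearson r of 0.992 across genes with sham array 3, which are not independent replicates), and its mean r was 0.984 with the sham arrays and 0.920 with its own group. Among the 37 genes, 30 lay within the range of the 4 sham arrays on untreated array 1, against 3 on array 2, 8 on array 3 and 13 on array 4. Over all genes the shares within that range were 70.3%, 32.8%, 20.3% and 30.9%. Untreated array 2 had the lowest levels of T cell and B cell markers of all 20 arrays. The median standard deviation of the 37 genes within a group was 0.69 in untreated rats, 0.32 in sham, 0.45 and 0.48 at 0.5 and 2 ml/kg of STW5 and 0.29 with omeprazole. For all genes the same figures were 0.65, 0.30, 0.41, 0.50 and 0.34. All comparisons of a treatment with the untreated group share these 4 arrays. Sham and untreated arrays lay on 1 slide, both STW5 groups on another and omeprazole on the third, so slide and treatment cannot be told apart when a treated group is set against the untreated one.

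**Figure D1:**
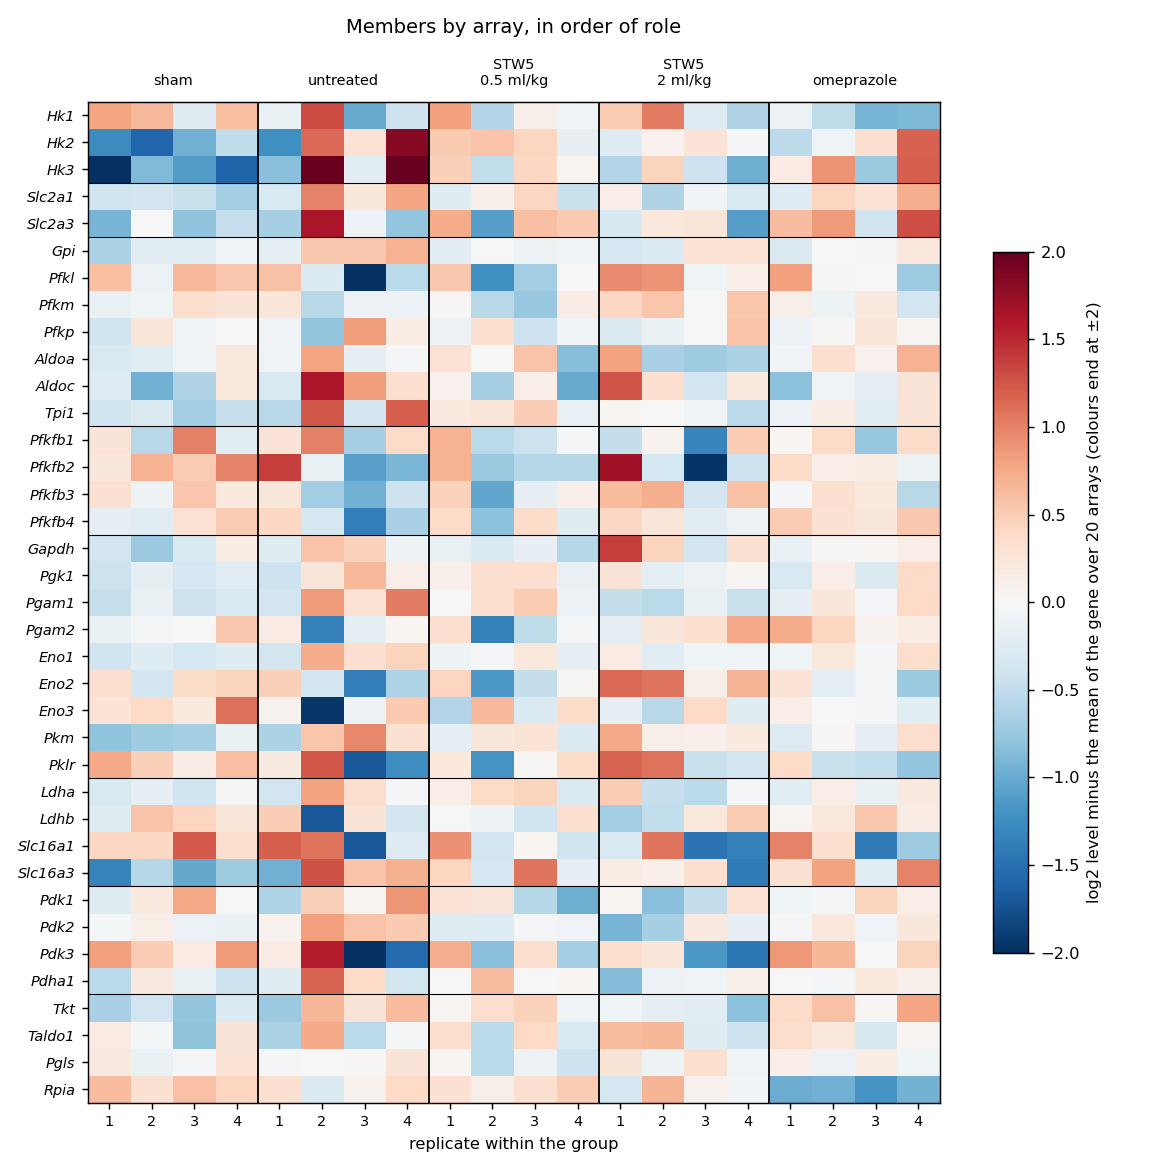
Level of each of the 37 genes on each of the 20 arrays, as the log2 level minus the mean of that gene over all arrays (colour, red higher and blue lower, ending at 2 in either direction); rows are grouped by role and columns by group and replicate. The omeprazole columns are blue for Rpia on all 4 arrays, while untreated arrays 2, 3 and 4 differ from array 1 in many rows.

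Across the 5 groups, 1 of the 37 genes passed the test, Rpia, with an adjusted p of 0.000797 in limma's F test. Of all genes tested 5.98% passed, and 26.9% had an unadjusted p below 0.05. The next members in order were Pdk2 (adjusted p = 0.112), Tkt (0.118), Pgam1 (0.128), Hk3 (0.142) and Hk2 (0.144), and none of them passed.

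In untreated esophagitis against sham, no member passed the test, and of all genes tested 0.00656% did, a single gene. At an unadjusted p below 0.05 there were 13 of the 37, 12 of them higher and 1 lower, beside 18.2% of all genes. The differences largest in size were those of Hk3 (2.88), Hk2 (1.58) and the lactate carrier Slc16a3 (1.31). The genes of the glycolytic line did not move as one. Gpi, Tpi1, Gapdh, Pgk1, Pgam1, Eno1 and Pkm had differences from 0.45 (Pgk1) to 0.88 (Pkm). Aldoa (0.23) and Pfkp (0.09) differed by less, and Hk1 (-0.51) and Pfkl (-0.99) had negative differences. So did most bifunctional regulators and the tissue isoforms of enolase. The median difference over the 37 genes was 0.12 (21 higher, 16 lower), where that of all genes was -0.19. This comparison sets the reflux-causing surgery together with the injury that follows it against the sham operation, and cannot separate the 2.

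Hk3 phosphorylates glucose and had the largest difference of all members. Its levels on arrays 1 to 4 were -3.63, -2.13, -2.35 and -2.84 in sham rats. They were -2.09, 0.73, -1.46 and 3.36 in untreated rats. The groups did not overlap, but by a narrow margin, and untreated arrays 2 and 4 were far above the others. The difference was 2.88 ± 0.80 (SE, n = 4 per group), with an adjusted p of 0.242 in limma. Hk3 was well above background on 2 of the 4 sham arrays and on all untreated ones, so the size is uncertain. It was 1.80 without untreated array 4 and 1.52 with normexp, another background correction.

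Hk2, the insulin-responsive hexokinase, was not well above background on any sham array and was so on 3 of 4 untreated arrays. With sham levels raised to the lowest signal well above background, the mean of Hk2 was 1.62-fold higher in untreated rats. This figure carries no error and is not a firm minimum. Untreated array 1 (-4.93) lay within the sham range of -5.28 to -4.20. The fitted difference of 1.58 had an adjusted p of 0.242 in limma and turned to -0.048 under normexp. Hk1, the housekeeping hexokinase, had a difference of -0.51 ± 0.44 (SE) with overlapping groups.

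Glucose enters blood cells through the carriers encoded by Slc2a1 (GLUT1) and Slc2a3 (GLUT3). Slc2a1 ranged from -0.24 to 0.07 on the sham arrays and read 0.13, 1.43, 0.67 and 1.23 on the untreated arrays. The groups did not overlap, and untreated array 1 lay just above the sham range. The difference was 0.90 ± 0.29 (SE), 1.86-fold, adjusted p = 0.242 in limma. Hk3 and Slc2a1 were the only 2 of the 37 genes whose untreated arrays all lay above all sham arrays, a pattern seen in 1.49% of all genes, and no member showed the opposite one (1.65% of all genes). Slc2a3 had a difference of 0.57 ± 0.51 (SE).

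Gpi, which converts glucose 6-phosphate to fructose 6-phosphate, read 3.29, 3.72, 3.72 and 3.86 in sham rats. It read 3.74, 4.47, 4.46 and 4.63 in untreated rats. Untreated arrays 2 to 4 were above all sham arrays and array 1 was among them, which gave a difference of 0.68 ± 0.23 (SE). The same arrangement held for Pgam1 (0.78 ± 0.26, SE), the phosphoglycerate mutase, for Pkm (0.88 ± 0.29), the pyruvate kinase of most tissues, and for Eno1 (0.59 ± 0.22), the ubiquitous enolase. All 4 had an adjusted p of 0.242 in limma.

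The probes behind these values, given as the first 30 bases of the 60-base oligonucleotide on the array, show which stretch of each transcript was read. On the rn4 build named in the array files the probe for Hk3 lies at chr17:15668934-15668993 on the plus strand and starts at base 2851 of the transcript. That for Slc2a1 lies at chr5:139718779-139718838 on the plus strand and starts at base 2330. The probe for Gpi lies at chr1:86659123-86659182 on the minus strand and starts at base 1667.
Hk3: ttgaggaaaatctccaaagagcaattggga
Slc2a1: tctcctgtgcactgagggccagacaaacac
Gpi: cgtaacctcccatgactcctccactaatgg

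The other enzymes of upper glycolysis differed in direction. Aldoc, a brain-type aldolase, was higher by 1.03 ± 0.41 (SE) and Tpi1, triose phosphate isomerase, by 0.83 ± 0.34, both with an adjusted p of 0.255 in limma. Aldoa, the main aldolase of blood cells, differed by 0.23 ± 0.35. The liver-type phosphofructokinase Pfkl was lower by value (-0.99 ± 0.48, SE), with levels of 3.58, 2.73, 0.94 and 2.46 in untreated rats and 3.60, 2.88, 3.65 and 3.54 in sham. Untreated array 3 was far below the rest. The muscle and platelet types Pfkm (-0.23) and Pfkp (0.09) differed by less than their standard errors of 0.25 and 0.29. The median of the 7 genes of upper glycolysis was 0.23 (5 higher, 2 lower).

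The bifunctional enzymes Pfkfb1 to Pfkfb4 set the level of fructose 2,6-bisphosphate, which activates phosphofructokinase. Their median in untreated rats against sham was -0.64 (1 higher, 3 lower). It rests in part on dim genes. Pfkfb1 (0.12) was well above background on 1 sham and 3 untreated arrays, and Pfkfb2 (-0.79) on 1 array of either group. Pfkfb3, the inducible form, read -1.25, -1.65, -0.99 and -1.35 in sham rats and -1.33, -2.23, -2.51 and -1.96 in untreated rats. The difference was -0.69 ± 0.33 (SE), adjusted p = 0.275 in limma. Pfkfb4 differed by -0.59 ± 0.33. For both genes untreated array 1 lay within the sham range and the other 3 below it.

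In lower glycolysis 5 genes had positive and 4 negative differences, and none passed. Gapdh (0.49 ± 0.30, SE), Pgk1 (0.45 ± 0.23), Pgam1, Eno1 and Pkm were the positive ones. Pgam2 (-0.42 ± 0.36), the muscle mutase, well above background on 1 sham and 2 untreated arrays, Eno2 (-0.67 ± 0.38), the neuronal enolase, Eno3 (-0.86 ± 0.41), the muscle enolase, and Pklr (-0.87 ± 0.54) were the negative ones. Eno3 was the only lower member among those with an unadjusted p below 0.05 (adjusted p = 0.274 in limma). Its untreated level was 0.23 on array 2 and 2.08 to 2.69 on the other 3, which lay far above it. Pklr was at -3.45 and -2.99 on untreated arrays 3 and 4 and at -1.57 and -0.51 on arrays 1 and 2, beside -1.61 to -0.99 in sham rats. The erythroid marker genes were at their lowest on the same arrays 3 and 4; their part in the Pklr value was not tested.

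Lactate is formed by lactate dehydrogenase (Ldha and Ldhb) and crosses the membrane through Slc16a1 (MCT1) and Slc16a3 (MCT4), the export carrier of glycolytic cells. Slc16a3 read 2.50, 3.27, 2.82 and 3.14 in sham rats. It read 2.88, 5.12, 4.41 and 4.56 in untreated rats, 3 arrays above and 1 within the sham range. The difference was 1.31 ± 0.46 (SE), 2.48-fold, adjusted p = 0.242 in limma. Ldha (0.39 ± 0.27), Ldhb (-0.57 ± 0.38) and Slc16a1 (-0.52 ± 0.64) differed by less, and Slc16a1 spread from -1.96 to 0.93 within the untreated group.

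Pyruvate dehydrogenase kinases switch off the entry of pyruvate into mitochondria. Pdk2 read -0.36, -0.21, -0.44 and -0.46 in sham rats. It read -0.26, 0.49, 0.25 and 0.21 in untreated rats, a difference of 0.54 ± 0.23 (SE, adjusted p = 0.260 in limma). Pdk1 was well above background on no sham array and had a fitted difference of 0.01. Pdk3 differed by -1.05 ± 0.61, with untreated levels from -0.92 to 2.67, and Pdha1, the catalytic subunit of the complex itself, by 0.47 ± 0.30.

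In the pentose phosphate pathway Tkt, a transketolase of the non-oxidative branch, was higher by 0.72 ± 0.29 (SE, adjusted p = 0.254 in limma), with untreated levels of 5.04, 6.46, 6.04 and 6.42 beside 5.01 to 5.50 in sham rats. Taldo1 (-0.0050 ± 0.35), the transaldolase, and Pgls (-0.0091 ± 0.19), the lactonase of the oxidative branch, showed no difference larger than their errors. Rpia, ribose 5-phosphate isomerase, differed by -0.36 ± 0.22 with overlapping groups.

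**Figure D2:**
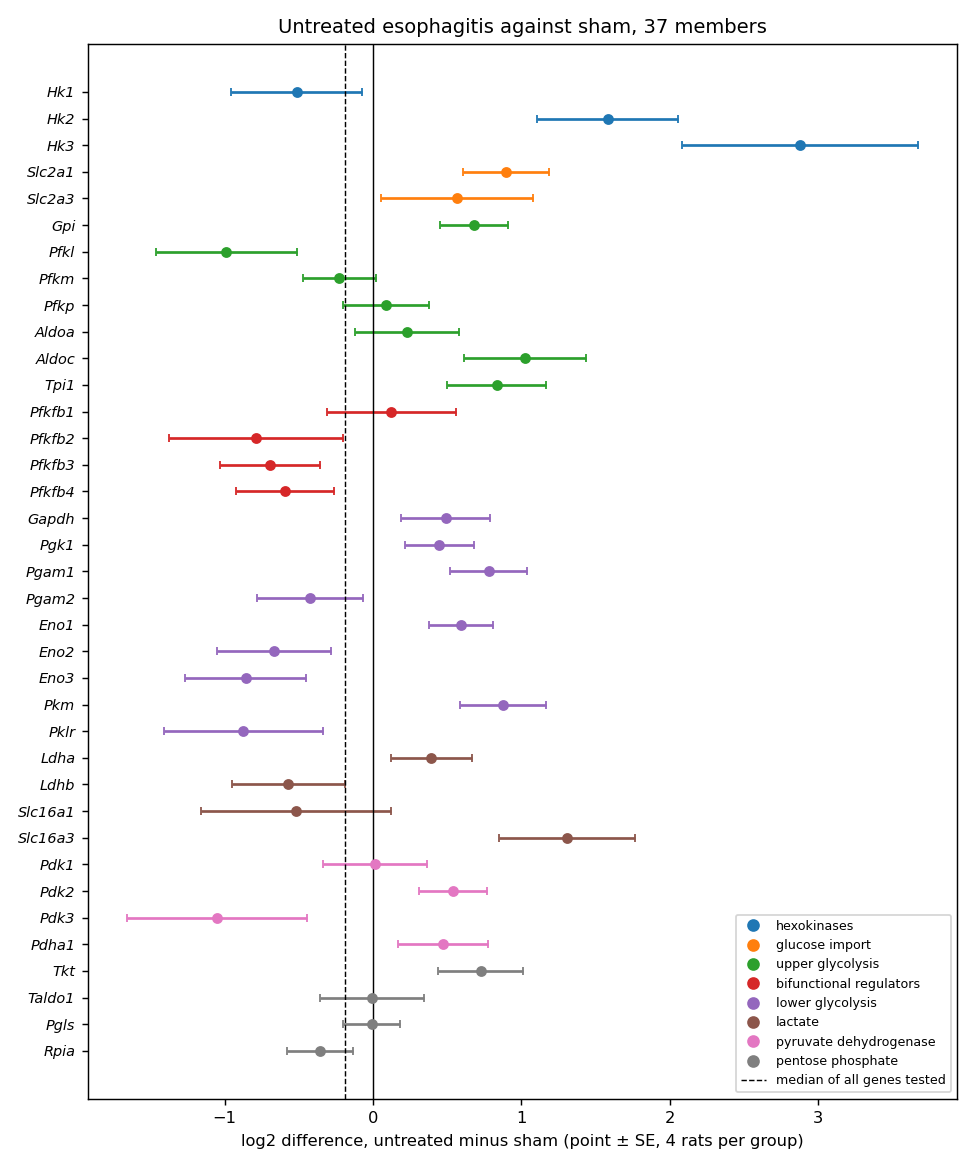
Difference between untreated esophagitis and sham on the log2 scale for each of the 37 genes (point, with 1 standard error on either side, 4 rats per group), coloured by role; the solid line marks 0 and the dashed line the median of all genes tested, -0.19. Hk3 lies farthest to the right at 2.88 and Pdk3 farthest to the left at -1.05.

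The result against sham turned on a single array. When untreated array 1 was left out, 11 of the 37 genes passed the test, all of them higher, and so did 11.6% of all genes tested (1771). The 11 genes were Hk2, Hk3, Pkm, Pgam1, Slc16a3, Tkt, Eno1, Slc2a1, Gpi, Tpi1 and Aldoc, with differences from 0.81 (Eno1) to 3.62 (Hk3) and adjusted p values in limma from 0.00574 (Hk2) to 0.0458 (Aldoc). Over all 18 alternatives the adjusted p of Hk2 ranged from 0.00574 to 0.859 and that of Hk3 from 0.0120 to 0.467, each past the threshold in this one only. Leaving out any other sham or untreated array gave 0 members past the threshold. The labels place array 1 in the untreated group, and it was kept there.

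Omeprazole against untreated esophagitis gave the 1 call among the members. Rpia fell by 1.15 on the log2 scale (SE 0.22, 2.22-fold lower, adjusted p = 0.00235 in limma). Of all genes tested 4.18% passed in this comparison, 0.348% higher and 3.83% lower, so 1 lower call among 37 genes is close to the share of all genes. At an unadjusted p below 0.05 there were 2 of 37, beside 15.5% of all genes. Rpia encodes the isomerase that links ribulose 5-phosphate with ribose 5-phosphate, the sugar used for nucleotides.

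On the omeprazole arrays Rpia read -0.07, -0.05, -0.27 and -0.03. It read 1.24, 0.63, 1.00 and 1.31 in untreated rats, from 1.22 to 1.52 in sham, 1.21, 1.04, 1.24 and 1.42 at 0.5 ml/kg of STW5, and 0.55, 1.60, 0.99 and 0.85 at 2 ml/kg. All 4 omeprazole arrays lay below all 16 others, whose lowest value was 0.55. The same held for 2.90% of all genes tested and for no other member. Against the untreated group alone, Rpia was the 1 member without overlap, lower; 4.95% of all genes were lower and 2.31% higher in this way. The standard deviation of the 4 omeprazole values was 0.11, against 0.31 in untreated rats.

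Rpia was represented by a single probe, at chr4:103934938-103934997 on the minus strand of rn4, which starts at base 1752 of the transcript. No stretch of it matched a probe of another name (at least 30 bases at 85% identity or more). Its first 30 bases are printed with AATAAA, the common polyadenylation signal, in capitals.
Rpia: gctgtttgaaggttgaAATAAAcatgattg
These 6 letters stood in 8.39% of all 30367 probes as printed and in 2.86% on the other strand, and in 6 and 3 of the 37 probes used for the members.

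Under the 18 other settings that kept the scaling within the sample RNA, the Rpia difference ranged from -1.29 to -0.93 with adjusted p values in limma from 0.000682 to 0.0473. These settings are not all separate checks. Exchanging the STW5 doses cannot change this comparison, and median scaling and the authors' table both divide by the array median. With scaling to spike-in controls it was -1.07, and the adjusted p of 0.147 did not pass. The neutrophil marker genes averaged 0.38, 0.68, -0.37 and 0.97 on omeprazole arrays 1 to 4 (mean log2 deviation from gene means) and the erythroid ones 0.84, 0.21, -0.14 and -0.45, while Rpia stayed within -0.27 to -0.03 on the same arrays. Against the untreated group, all 9 T cell markers (4 with an unadjusted p below 0.05) and all 8 erythroid markers were higher with omeprazole, and all 6 platelet markers were lower, none of them past the threshold. Neutrophil markers were 10 higher and 2 lower, and monocyte markers 4 higher and 4 lower, 1 of the latter past the threshold. Whether cell composition, or the slide that held the omeprazole arrays alone, took part in the Rpia value was not tested. In whole blood, fewer cells of a type and less RNA per cell cannot be told apart.

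The other members did not pass with omeprazole. Pfkfb4 had the next smallest p: it read -1.36, -1.57, -1.65 and -1.34 with omeprazole and -1.47, -2.24, -3.26 and -2.52 in untreated rats, a difference of 0.89 ± 0.33 (SE, adjusted p = 0.177 in limma). Without untreated array 1, Pfkfb4 passed beside Rpia, as did 7.49% of all genes. Aldoc (-0.83 ± 0.41), Pgam2 (0.68 ± 0.36), Gpi (-0.40 ± 0.23) and Pdk2 (-0.41 ± 0.23) followed, with adjusted p values of 0.345 to 0.401. The median over the members was -0.08 (17 higher, 20 lower), where that of all genes was 0.10. Tkt, higher in untreated rats by value, differed by 0.24 ± 0.29 with omeprazole. It read 5.81 to 6.58 on the omeprazole arrays and 5.01 to 5.50 on the sham arrays of another slide, a comparison that was not tested. On single omeprazole arrays, 19.6% to 26.3% of all genes lay above the sham range.

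**Figure D3:**
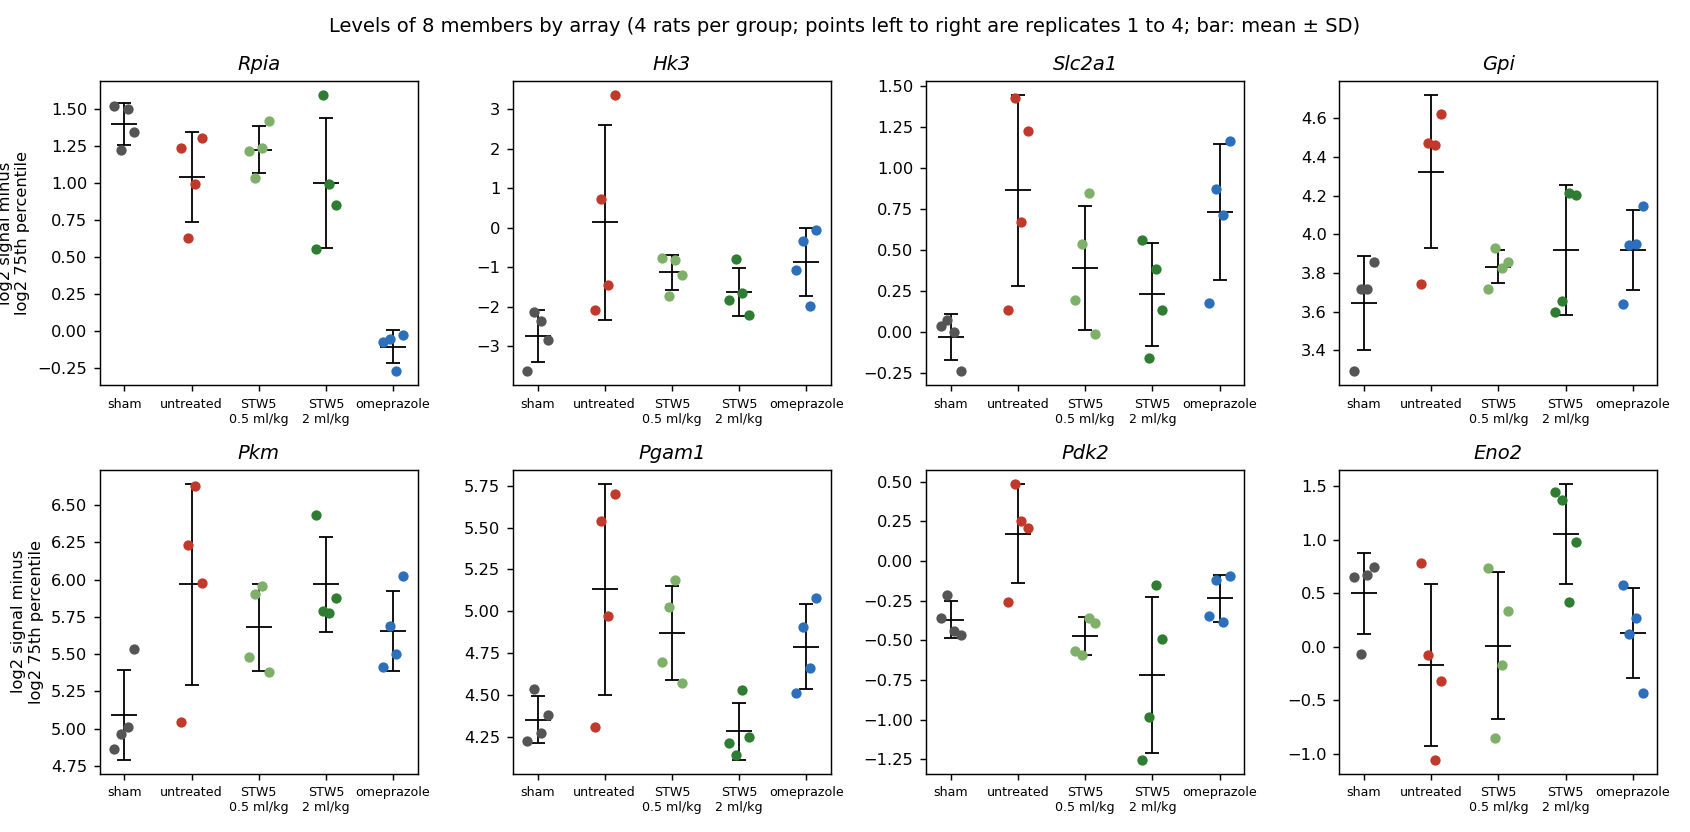
Levels of Rpia, Hk3, Slc2a1, Gpi, Pkm, Pgam1, Pdk2 and Eno2 on the 20 arrays (log2 intensity minus the log2 75th percentile of the array; each panel has its own axis), with 4 points per group in replicate order and a bar for the mean ± SD. Rpia on the omeprazole arrays lies between -0.27 and -0.03, below every other array, and untreated array 1 lies at or near the sham arrays for most of the other genes.

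STW5 at 0.5 ml/kg against untreated esophagitis gave no member past the threshold and no gene at all (0% of 15239). At an unadjusted p below 0.05 there were 3 of 37, all lower, beside 5.95% of all genes. They were Pdk2 (-0.65 ± 0.23, SE, adjusted p = 0.668 in limma), Aldoc (-0.99 ± 0.41, adjusted p = 0.738) and Gpi (-0.49 ± 0.23, adjusted p = 0.839). Pdk2 read -0.57, -0.59, -0.36 and -0.39 at this dose, below all 4 untreated arrays (-0.26 to 0.49), the only member without overlap (1.21% of all genes were lower and 0.682% higher in this way). Slc2a1 (-0.47 ± 0.29), Hk3 (-1.26 ± 0.80) and Pgls (-0.31 ± 0.19) had the next smallest p values. The median over the members was -0.10 (13 higher, 24 lower), beside 0.02 for all genes.

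STW5 at 2 ml/kg against untreated esophagitis also gave no member past the threshold, and 0% of all genes passed, although 23.5% had an unadjusted p below 0.05. Among the members these were 7: Pdk2, Pgam1, Hk3 and Slc2a1 were lower, and Eno2, Pfkfb3 and Pfkl higher. No member was without overlap, against 3.34% of all genes higher and 0.774% lower in this way. The median over the members was -0.16 (14 higher, 23 lower), where that of all genes was 0.14. With scaling to spike-in controls only 2 were higher, and the median of all genes moved to -0.87.

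Pdk2 at 2 ml/kg read -1.25, -0.98, -0.15 and -0.49, against -0.26, 0.49, 0.25 and 0.21 in untreated rats. Arrays 1 and 2 were the lowest of all 20, and array 3 lay above the lowest untreated array. The difference was -0.89 ± 0.23 (SE), 1.85-fold, with an adjusted p of 0.0971 in limma. Pgam1 read 4.21, 4.14, 4.53 and 4.24, within or just below its sham range of 4.22 to 4.54. It was lower than in untreated rats by value (-0.85 ± 0.26, adjusted p = 0.0984 in limma), and the lowest untreated array, 4.31, overlapped it.

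Eno2, the enolase of neurons that red cells and platelets also contain, read 1.44, 1.37, 0.42 and 0.98 at 2 ml/kg and 0.78, -0.07, -1.06 and -0.31 in untreated rats. The difference was 1.22 ± 0.38 (SE), 2.33-fold, adjusted p = 0.0995 in limma, and 0.21 with spike-in scaling (adjusted p = 0.611; from 0.0169 to 1.00 over all 19 alternatives). Pfkfb3 differed by 0.85 ± 0.33 (-0.17 under spike-in scaling), Pfkl by 1.04 ± 0.48, Hk3 by -1.77 ± 0.80 and Slc2a1 by -0.63 ± 0.29, with adjusted p values of 0.143 to 0.192. All 8 erythroid marker genes were higher at 2 ml/kg than in untreated rats, with none past the threshold; on arrays 1 to 4 they averaged 0.74, 0.78, -0.48 and -0.67, and Eno2 was likewise higher on arrays 1 and 2. The part of red cells in the Eno2 value was not tested.

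The probes for Pdk2 and Eno2 lie at chr10:83710577-83710636 and chr4:160893529-160893588 of rn4, both on the minus strand, starting at bases 2017 and 769 of their transcripts. They are shown because these genes were among those nearest to the threshold at the higher dose. Pgam1, whose probe is not printed, was nearer than Eno2.
Pdk2: ttagaccccagacttcctatgcccactatg
Eno2: acgacttggatttcaagtctcctgctgacc
A second Eno2 probe, well above background on 2 arrays only and so not tested, had differences of 1.24 against sham and -1.07 at 2 ml/kg, opposite in sign to the probe used.

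The count at 2 ml/kg moved with the scaling and with single arrays. With spike-in scaling 17 members passed, all lower, as did 24.1% of all genes (3673). The 75th percentile was 77.7, 71.3, 163 and 105 on the arrays at 2 ml/kg and 124, 166, 266 and 222 on the untreated arrays. The mean log2 spike-in signal was 12.5 to 12.7 and 12.2 to 12.9 in the same groups. The part of this difference in array signal in the counts was not tested. Without untreated array 1, 8 members passed (Pgam1, Pdk2, Tkt, Hk3 and Slc2a1 lower; Eno2, Pfkfb3 and Pfkl higher), as did 19.8% of all genes. Without array 3 of the 2 ml/kg group, Pdk2 and Eno2 passed, as did 6.81% of all genes.

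Between the doses, 2 against 0.5 ml/kg, no member and 0% of all genes passed, and 4 members had an unadjusted p below 0.05, beside 26.6% of all genes. Eno2 was higher at 2 ml/kg by 1.04 ± 0.38 (SE, adjusted p = 0.117 in limma), Pfkm by 0.66 ± 0.25 (0.121) and Gapdh by 0.74 ± 0.30 (0.140); all 3 turned negative under spike-in scaling, at -0.22, -0.60 and -0.52. Pgam1 was lower by 0.59 ± 0.26 by value (adjusted p = 0.166) without overlap, as in 3.83% of all genes (7.36% were higher in this way): 4.14 to 4.53 at 2 ml/kg against 4.57 to 5.18 at 0.5 ml/kg. Gapdh read 8.10, 7.17, 6.34 and 7.03 at 2 ml/kg and 6.14 to 6.56 at 0.5 ml/kg, and it passed only when array 3 of the higher dose was left out. Exchanging the doses, whose labels conflict, turns the sign of every difference between them.

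Isoform pairs were compared as the log2 ratio of both probes on 1 array, which dividing an array by a constant does not change; the level of the ratio itself has no meaning, since probes differ in brightness. Of 30 tests over 6 pairs and 5 comparisons, 1 had a p below 0.05 in the exact two-sided permutation test and 0 after adjustment. The ratio of Hk3 to Hk1 was -7.48, -5.83, -5.16 and -6.50 on sham arrays 1 to 4 and -5.01, -3.63, -3.49 and 0.73 on untreated arrays. The groups did not overlap, and the difference was 3.39 ± 1.34 (SE; exact permutation p = 0.0286, the smallest that 70 splits allow, adjusted p = 0.686). The ratio of Pkm to Pklr differed by 1.75 ± 0.87 (exact permutation p = 0.0857) and that of Slc16a3 to Slc16a1 by 1.83 ± 0.98 (exact permutation p = 0.114). Ldha to Ldhb (0.96 ± 0.73), Pfkl to Pfkm (-0.76 ± 0.56) and Slc2a3 to Slc2a1 (-0.33 ± 0.50) had exact permutation p values of 0.229, 0.229 and 0.629. At 2 against 0.5 ml/kg of STW5 the ratio of Hk3 to Hk1 differed by -0.61 ± 0.24 (exact permutation p = 0.0571).

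**Figure D4:**
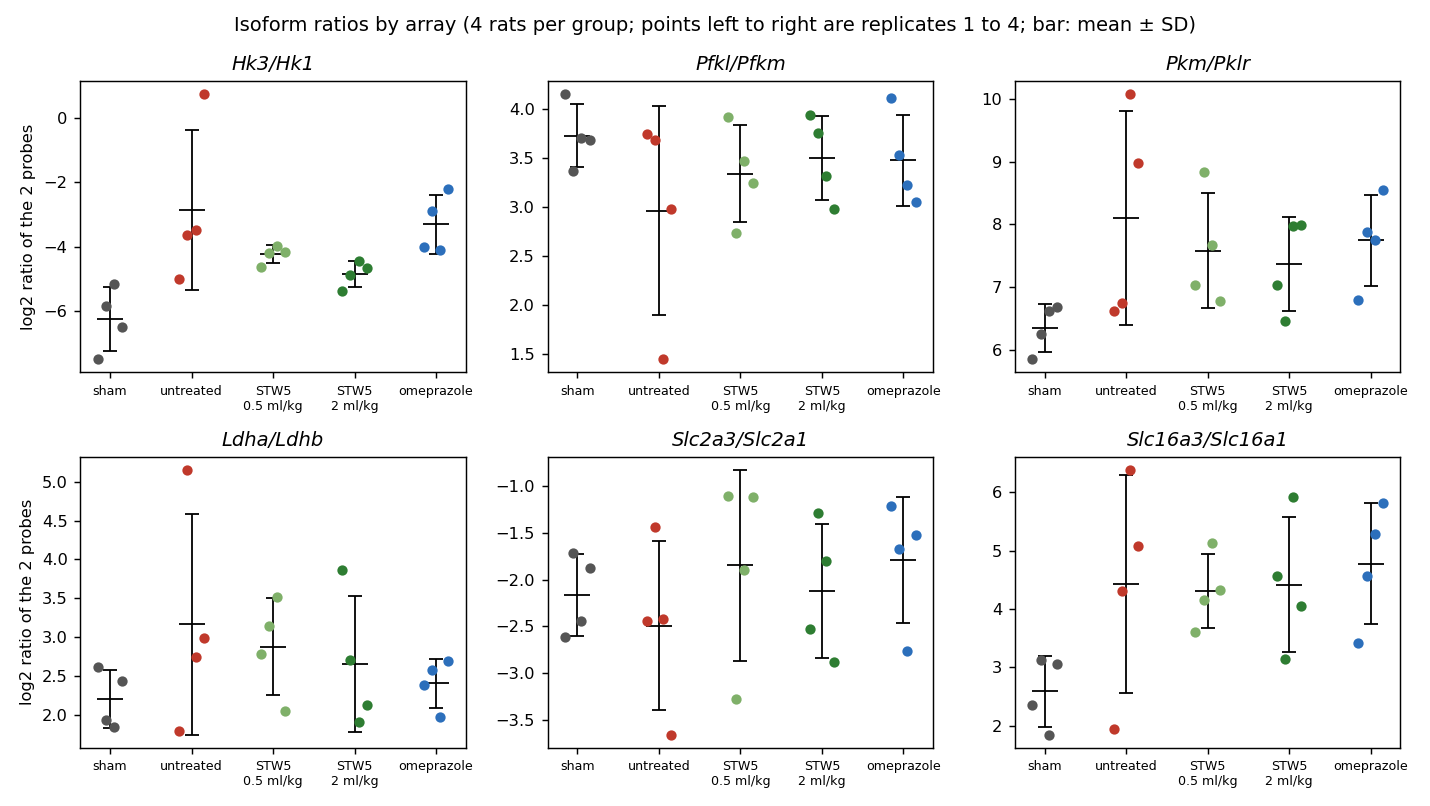
Log2 ratio of 2 probes on the same array for 6 pairs of isoenzymes or carriers (each panel has its own axis), with 4 points per group in replicate order and a bar for the mean ± SD. For Hk3 to Hk1 the sham arrays lie between -7.48 and -5.16 and the untreated arrays between -5.01 and 0.73; the untreated group has the widest spread in 5 of the 6 pairs, all but Slc2a3 to Slc2a1.

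Genes read by more than 1 probe show how far a value rests on the probe. There were 8 members with at least 2 tested probes. Pfkl differed between untreated and sham by -0.99 at the probe used and by 0.04 at the other one, Aldoc by 1.03 and 0.15, and Eno1 by 0.59, 0.53 and 0.04. Against the untreated group, Aldoc differed by -0.83 and -0.05 with omeprazole and by -0.99 and -0.56 at 0.5 ml/kg of STW5. Pfkl differed by 1.04 and 0.30 at 2 ml/kg. Pdha1 differed between omeprazole and untreated by -0.16 at the probe used and by -1.09 at the other one, and between untreated and sham by 0.47 and 0.61. Tpi1 (0.83 and 0.87), Pfkfb3 (-0.69 and -0.55) and Gapdh (0.49, 0.38 and 0.63) differed between untreated and sham in the same direction at each probe. The Eno1 probe at 0.04 lies on chromosome 10 of rn4, while RefSeq (assembly GRCr8) places Eno1 on chromosome 5. Pgam1 has only 1 probe, which lies on chromosome 10, while RefSeq places the gene on chromosome 1.

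Pkm had 3 tested probes, shown because they differ in response. They start at bases 1331, 1512 and 2012 of their transcript records, the last of which is another record than that of the first and second, and lie at chr8:63504373-63504432, chr8:63507002-63507061 and chr8:63508061-63508120 on the plus strand of rn4.
Pkm from 1331: cgtggaggcctcttataaatgtttagcagc
Pkm from 1512: gccgtactggatgcctgggctgaggacgtt
Pkm from 2012: gggcccagggttcccatgtagatgactttt
The differences between untreated and sham were 0.21, 0.57 and 0.88 in this order, and those between omeprazole and untreated 0.59, 0.13 and -0.31. The first probe was well above background on 14 arrays and the other two on all 20.

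Near-identical sequences elsewhere limit 3 of the probes used. Those of Gapdh, Ldha and Ldhb partly match a probe of another name, over 55 bases at 87.3% identity, 44 bases at 100% and 55 bases at 87.3%. One example is a second Gapdh probe, which starts at base 783 of the transcript (chr4:161282760-161282907, minus strand, rn4) and partly matches 20 probes of other names; the one starting at base 1000 partly matches 48. The 40 bases in capitals are identical in one of them.
Gapdh from 783: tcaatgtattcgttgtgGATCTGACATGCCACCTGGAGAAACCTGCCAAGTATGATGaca
The values of Gapdh, Ldha and Ldhb are uncertain to that extent, and the share of signal from related sequences was not tested.

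Marker genes of blood cell types moved between groups beside the members. In untreated against sham, 9 of 12 neutrophil markers and 5 of 8 monocyte markers were higher, and all 9 T cell, 7 B cell and 8 erythroid markers were lower, with none past the threshold. The mean deviation of the neutrophil markers was -1.11 to -0.58 on the sham arrays and -0.64, 1.67, -0.61 and -0.34 on untreated arrays 1 to 4. That of the monocyte markers was -0.66 to -0.26 in sham and -0.51, 0.92, 0.30 and 1.09 in untreated rats. The 37 members averaged -0.29, -0.13, -0.21 and -0.06 in sham rats and -0.23, 0.57, -0.08 and 0.36 in untreated rats, so that arrays 2 and 4 were high for the members and for monocyte markers alike. Erythroid markers averaged 0.27 to 0.88 in sham and 0.38, 0.68, -1.87 and -1.27 in untreated rats. The part of cell composition in the members' values was not tested. Of the 6 skeletal muscle markers, Ckm, Acta1 and Myh1 were well above background on no array and Myh4 on 1, while Mb was so on 20 and Tnnt3 on 19. Of the 4 squamous epithelium markers, Krt13 was so on no array and Krt5 on 2, while Krt4 and Krt14 were so on all 20.

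**Figure D5:**
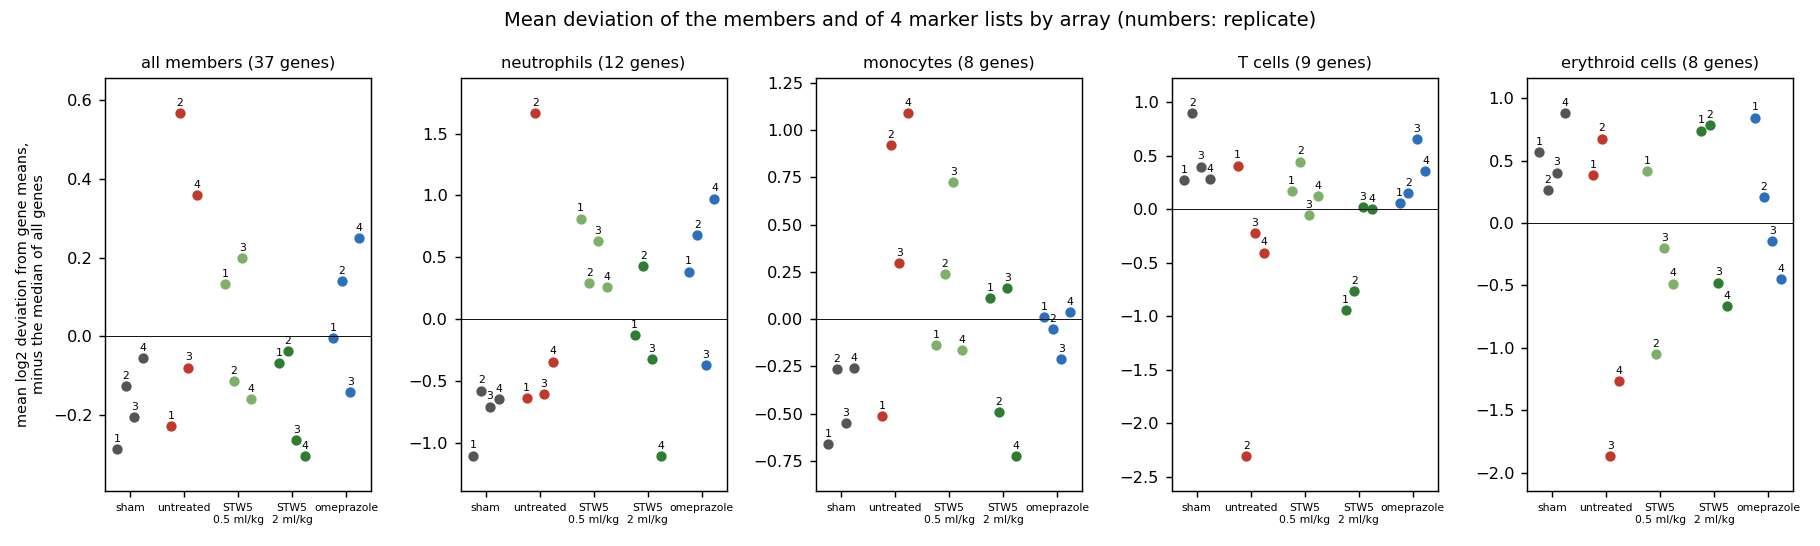
Mean log2 deviation from the gene means, minus the median of all genes, for the 37 members and for marker genes of 4 blood cell types on each of the 20 arrays (points numbered by replicate, 5 groups of 4; each panel has its own axis). Untreated array 2 is highest for the members (0.57) and for neutrophil markers (1.67) and lowest for T cell markers (-2.31), and untreated arrays 3 and 4 are lowest for erythroid markers (-1.87 and -1.27).

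A further 45 genes around the same pathways were listed (glycogen enzymes, other carriers, pyruvate dehydrogenase subunits and rarer isoforms), and 34 of them were tested. None passed in untreated against sham or at either dose of STW5 in limma (3, 3 and 7 had an unadjusted p below 0.05), and 1 passed with omeprazole, beside 4.18% of all genes. This was Pygl, the liver-type glycogen phosphorylase that neutrophils also use, which fell by 1.69 (SE 0.35, adjusted p = 0.00435 in limma). It read -1.60, -1.15, -1.56 and -0.33 with omeprazole and -0.61, 1.08, 1.23 and 0.42 in untreated rats, and -1.02 to -0.38 in sham rats, so the omeprazole and untreated groups overlapped by 1 array. In untreated against sham 17 of the 34 were higher and 17 lower. Pygl (1.25 ± 0.35, SE) and Gys1 (1.54 ± 0.47), glycogen synthase, had the smallest p values, both with an adjusted p of 0.242 in limma. Bpgm, which makes the red cell regulator 2,3-bisphosphoglycerate, differed by -0.82 ± 0.37 (adjusted p = 0.268).

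With STW5 the smallest p values among these genes were those of Rpe, Ldhc and Mpc1 at 0.5 ml/kg (0.86 ± 0.26, 1.55 ± 0.57 and 0.57 ± 0.21, SE; adjusted p of 0.607, 0.668 and 0.668 in limma). At 2 ml/kg they were those of Pygm (1.44 ± 0.37, adjusted p = 0.0971), Gbe1, which was well above background on no array of that group, and Pdhx (1.19 ± 0.41, adjusted p = 0.113). With omeprazole Minpp1 (-0.57 ± 0.23) and Gys1 (-1.10 ± 0.47) followed Pygl. Rpe makes xylulose 5-phosphate from the same substrate as Rpia, and it read -2.47, -2.33, -2.79 and -2.68 at 2 ml/kg and -1.49, -0.96, -0.87 and -1.84 at 0.5 ml/kg. The groups did not overlap, and the difference of -1.28 ± 0.26 narrowly missed the threshold (adjusted p = 0.0540 in limma). Rpe was well above background on 3 of 4 arrays at 2 ml/kg. Between the doses, 4 of the 34 genes were lower without overlap, beside 3.83% of all genes. An unadjusted p below 0.05 in limma was found for 11 of the 34, beside 26.6% of all genes. Dld, a subunit of pyruvate dehydrogenase, differed by -0.68 ± 0.22 (SE).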

How the data were processed

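Whole-blood RNA of 20 rats was hybridised to 1-colour (Cy3) arrays of 62976 spots. Per the file headers, spot intensity was extracted with Agilent Feature Extraction 10.7.3.1; the processed intensity is background-subtracted and not normalized between arrays. Values in the authors' deposited table are a ratio of the processed signal to the array median, as found by setting its columns against the scanner files; 12 columns follow their own array and 8 the array of the other STW5 dose. Spots of a probe were averaged without outlier spots, divided by the array's 75th percentile of non-control spots and taken as log2. No spot was saturated. Testing was limited to the 17236 probes well above background on 4 arrays or more, with the brightest per gene. limma 3.58.1 in R 4.3.3 was fitted to all 20 arrays (lmFit, eBayes; 15 residual and 4.22 prior degrees of freedom). Tests were two-sided, adjusted by Benjamini-Hochberg over all genes, with a threshold of 0.05. Every adjusted p of a gene is limma's.

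The members and gene lists were chosen with earlier results of these data known. For each comparison the members past the threshold and the 6 with the smallest p were followed through the alternatives; other members are given by their values, and of the other pathway genes the 3 with the smallest p are named, without alternatives, except 1 that is not reported here. On simulated data for omeprazole against untreated (15239 genes), 21 of 100 genes changed by 1 and 78 of 100 changed by 2 on the log2 scale were recovered, with 5 unchanged genes called. The simulation drew genes independently, with the same spread of a gene in every group. In the data the median standard deviation of all genes was 0.65 in untreated rats and 0.34 with omeprazole. These figures may therefore not hold for the real comparison. Symbols came from RefSeq (GRCr8), probe sequences and rn4 coordinates from the array files. Replicate numbers were left out of the main fit and entered as a block in an alternative. Alternatives covered scaling, background, filter, probe choice, samples in the fit, dose labels and each array left out; the slide could not be fitted as a block.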

Additional observations from a re-analysis of the deposited data

Results flagged for a closer look

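Among 185 groups of 4 arrays (37 genes in 5 groups), 12 held an array far from the other 3 by Dixon's test, where chance gives about 1 in 20, or 9.25. On array 2, Slc2a3 was low at 0.5 ml/kg of STW5 (-2.74, others -1.12 to -0.91), and Pfkl (2.88, others 3.54 to 3.65) and Eno2 (-0.066, others 0.65 to 0.75) were low in sham rats. On array 2 also, Aldoa was high in untreated rats (4.46, others 3.49 to 3.64) and Pdha1 at 0.5 ml/kg (2.10, others 1.47 to 1.51). On array 1 of the 2 ml/kg group, Aldoa (4.47, others 2.95 to 3.03) and Pkm (6.43, others 5.77 to 5.87) were high. On array 3 of that group Pfkfb3 was low (-1.93, others -0.97 to -0.82), and on array 4 Slc16a3 was low (2.43, others 3.95 to 4.17). The remaining 3 were high: Pfkfb2 at 0.5 ml/kg on array 1 (-3.00, others -4.45 to -4.26), a gene near background, Slc16a1 in sham array 3 (0.97, others 0.08 to 0.15) and Pgls in untreated array 4 (2.28, others 2.00 to 2.04). No cause was tested.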

How the results depend on the processing

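Of 742 repeats for named genes under other settings, 685 kept direction and side of the threshold, as did 112 of 125 counts of members and 89 of 95 medians. Among the named genes only Rpia passed in the main fit, so for the others keeping the side means not passing again. Some settings cannot change some comparisons, such as exchanged STW5 doses for omeprazole. Scaling to spike-in controls gave 0 members past the threshold with omeprazole, 17 at 2 ml/kg of STW5, 27 between doses and 20 over the 5 groups, the last of these with 5925 genes in all and the STW5 counts with 3673 and 7762. The median of all genes became 0.37 against sham, 0.27, -0.87 and 0.18 for STW5 0.5, STW5 2 and omeprazole against untreated, and -1.09 between doses. Normexp gave 4 members between doses (3757 genes). Deviations had a median correlation of 0.092 between arrays of equal replicate number and -0.037 between those of other numbers. Of these pairs, 19 of 40 and 37 of 120 exceeded 0.1. Whether replicate numbers mark a shared source of variation was not tested. The replicate block gave 1 member at 2 ml/kg, Pdk2 (513 genes), and changed no other call of a member. Over all genes the block gave 529 calls between doses and 1354 over the 5 groups, against 0 and 912 without it.

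Leaving out single arrays gave 0 to 11 members against sham, 0 to 8 at 2 ml/kg, 1 to 2 with omeprazole, 0 to 1 between doses and 1 to 10 over the 5 groups. At the highest count of each, in this order, 11.6%, 19.8%, 7.49%, 5.29% and 19.8% of all genes passed. The members' median minus that of all genes moved, without a filter, to 0.57 against sham, -0.64 at 2 ml/kg and -0.76 between doses; between doses it was -0.47 with normexp and 0.26 both with the doses exchanged and in the authors' table.

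Signs turned as follows between doses, with the doses exchanged and in the authors' table: Eno2 -1.04 and -0.89, Gapdh -0.74 and -0.59, Pfkm -0.66 and -0.51, Pgam1 0.59 and 0.74, Pgam2 -0.66 and -0.51, Tkt 0.52 and 0.67. Spike-in scaling gave Eno2 -0.22, Gapdh -0.52, Pfkm -0.60 and Pgam2 -0.60 between doses and Pfkfb3 -0.17 at 2 ml/kg. Hk2 against sham was -0.048 with normexp, and Pgls at 0.5 ml/kg 0.035 with the doses exchanged. The exchange turns signs by its construction; the other causes were not tested.

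Counts over all genes moved most between doses, from 0 to 68 in the authors' table, 79 with median scaling and 529 with the block. They were 157 with the stricter filter and 5376 without a filter. With omeprazole they moved from 637 to 365 (stricter filter), 383 (compared groups only) and 404 (spike-in). The stricter filter tested 10267 genes and no filter 26263, against 15239 otherwise. As shares, 637 was 4.18% and 365 was 3.56%.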
